A study of Mus musculus with 23 samples.

Results

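The measurements compare mRNA on the tagged ribosomes of direct pathway neurons with that of indirect pathway neurons in the mouse striatum after chronic LDOPA. The comparison took every array labelled as chronic LDOPA in the DRD1A or the DRD2 line, which gave 12 of the 23 arrays of the series, 8 from DRD1A and 4 from DRD2 mice. DRD1A and DRD2 Bac mice express an EGFP-tagged L10a ribosomal protein under the DRD1A promoter (line CP73) or the DRD2 promoter (line CP101), on a mixed C57BL/6J and Swiss-Webster background. Each pathway is represented by 1 transgenic line, and the DRD2 promoter is also used by cholinergic interneurons, so the tag is not limited to medium spiny neurons (MSNs) by design. All mice had a unilateral 6-OHDA lesion at 35 days of age, received LDOPA (6 mg/kg, given together with 15 mg/kg benserazide) in 2 daily doses for 21 days, and a further dose on day 22. The striatum of the lesioned hemisphere was taken 40 min after that dose, at 71 days of age. The acute LDOPA groups, 7 DRD1A and 4 DRD2 arrays, differed in receiving vehicle for the 21 days, and their values are set beside those of the chronic groups. The group sizes are those of the labels, and the study's text gives other sizes for the chronic DRD1A and the acute DRD2 group. The labels name no mouse, and the study's methods state that each striatum was processed on its own.

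MSNs are the projection neurons of the striatum. Direct pathway MSNs carry the D1 dopamine receptor, which raises cAMP, and release dynorphin and substance P, while indirect pathway MSNs carry the D2 receptor, which lowers cAMP, and release enkephalin. In the dopamine-depleted striatum LDOPA acts on both, and immediate early genes such as FOS and the genes of the MAPK cascade are known to respond to it in D1 neurons. Translating ribosome affinity purification (TRAP) pulls the tagged ribosomes down with the mRNA they carry. Signals are given as log2 normalized signal, on which 1 unit is a doubling, and a probe at background lies near 7. Because no background was subtracted, a difference on this scale understates the difference of a dim gene.

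Each of the 12 chronic LDOPA arrays had 14070 to 17332 probes detected at a detection p under 0.05. Precision is limited by how few arrays there are. DRD2 replicates 2 and 3, which lay on different BeadChips, were nearly the same, with a correlation of 0.990 over the probes kept, against at most 0.928 for any other of 252 pairs of arrays. They were averaged into 1 sample, which leaves n = 8 for DRD1A and n = 3 for DRD2. This pairing departs from the design, which named replicates 2 and 4 (correlation 0.905), and was settled after the counts under both pairings had been seen. Averaging replicates 2 and 4 instead gave 56 called probes. DRD2 replicate 1 stood apart in the markers of the lines, with the lowest DRD2 signal (9.95) and the highest DRD1A signal (9.28) of the 4 DRD2 arrays. BeadChips 3 and 4 held both lines after chronic LDOPA, 3 DRD1A arrays and 1 DRD2 array on each, BeadChip 2 held 2 DRD1A arrays, and BeadChip 1 held 2 DRD2 arrays. p-values rest on the spread between samples within all 4 groups, chronic and acute, which were fitted together.

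Of 32255 probes kept, 9 differed between DRD1A and DRD2 samples at an adjusted p under 0.05 from limma, 6 higher and 3 lower in DRD1A, which is 0.0279% of the probes. They belong to 7 genes, DRD2 on mouse chromosome 9, TNNT1 and ZFP689 on 7, EYA1 on 1, KCNA6 on 6, SFXN1 on 13 and ZFP654 on 16. TNNT1, EYA1, SFXN1 and KCNA6 were higher in DRD1A samples, and DRD2, ZFP689 and ZFP654 were lower. At an unadjusted p under 0.05, 1982 probes passed. In each of the 9 probes every DRD1A sample lay on one side of every DRD2 sample. Among all genes, each represented by its brightest probe, every DRD1A sample was above every DRD2 sample in 1.1% and below in 0.695%. Over all probes the median difference was 0.008 and 103 were at least 2-fold higher and 178 at least 2-fold lower in DRD1A samples. These counts were 185 and 152 with median scaling, 846 and 1318 with normexp background correction, and 150 and 350 without DRD2 replicate 4. Median scaling called 15 probes higher and 16 lower. Lists of genes are counted below by the brightest probe at an unadjusted p under 0.05, which 2.73% of 23008 genes passed as higher and 3.47% as lower in DRD1A samples, with a median difference over all genes of 0.01. Of 68 such counts 33 moved by over 1.5 times on leaving out 1 array, 23 of them without DRD2 replicate 4 and 15 without DRD2 replicate 1.

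DRD2, the D2 dopamine receptor that names the indirect pathway, checked the labels. Its signal in DRD1A samples was 7.23 at the lowest, 7.35 at the median and 7.76 at the highest, against 9.95, 11.07, 11.02 and 11.17 in DRD2 replicates 1 to 4. The DRD1A samples therefore lay near background, although 7 of the 8 arrays were called detected. The log2 difference was -3.34 ± 0.189 (SE), a 10.1-fold lower signal in DRD1A (adjusted p = 6.04e-09), and with normexp background correction it was 33.9-fold. DRD1A, the D1 receptor itself, overlapped between the lines. It ranged over 8.12, 9.38 and 10.35 (lowest, median and highest) in DRD1A samples, and was 9.28, 7.04, 7.19 and 8.50 in DRD2 replicates 1 to 4. The difference of 0.91 ± 0.468 did not pass (adjusted p = 0.857). DRD2 replicate 1 thus carried nearly as much DRD1A signal as the median DRD1A sample, whereas replicates 2 and 3 were at background. DRD2 replicate 4 (8.50) lay above DRD1A replicates 5 (8.12) and 7 (8.32), so the lines overlapped without DRD2 replicate 1 too. Without DRD2 replicate 1 the difference was 1.40, and it passed in none of the 36 alternatives. By qRT-PCR on the same amplified cDNA, the study reports DRD1A enriched in the DRD1A line and DRD2 in the DRD2 line.

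TNNT1, the slow skeletal muscle troponin T, had the largest positive difference of the called probes. DRD1A samples had 9.79, 10.84 and 11.40 at the lowest, median and highest, against 8.01, 7.79, 7.69 and 7.45 in DRD2 replicates 1 to 4. The difference was 2.97 ± 0.366, or 7.81-fold (adjusted p = 0.00189). Every DRD1A sample was thus well above every DRD2 sample, and all 12 arrays were called detected. Of the other 13 kept genes of troponins and the sarcomere, TNNI3 passed an unadjusted p under 0.05 (0.41, with no DRD2 array above background), and TPM2 (0.95) and MYL4 (0.84) had larger differences that did not.

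EYA1, a transcriptional coactivator and phosphatase, was called by both of its dimmer probes. On probe P3800678 DRD1A samples had 8.42, 9.26 and 9.70 at the lowest, median and highest, against 7.02, 7.01, 7.05 and 7.13 in DRD2 replicates 1 to 4. None of the DRD2 arrays was above background there, so the mean of this probe was at least 4.07-fold higher in DRD1A samples. The bound was set by the dimmest detected signal of each DRD2 array (measured difference 2.17 ± 0.30, adjusted p = 0.00561). It holds for this probe and not for the gene. Probe P5270343 gave 2.20 ± 0.352 (adjusted p = 0.0194), with 9.42 ± 0.48 in DRD1A samples and 7.23 ± 0.31 in DRD2 samples (SD, n = 8 and 3). The brightest EYA1 probe, P3170711, was also without overlap, at 11.18 to 12.26 in DRD1A samples and 10.58 to 10.80 on the DRD2 arrays, but its difference of 0.91 ± 0.381 did not pass (adjusted p = 0.718). The probes of EYA1 thus disagree on the level in DRD2 samples, which lay at background on P3800678 and well above it on P3170711. Of the other 11 kept genes of the EYA and DACH transcriptional network, DACH1 was lower in DRD1A samples at an unadjusted p of 0.00329 (-1.28) and 4 genes were detected on no array.

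SFXN1, a mitochondrial serine transporter, had 10.17, 10.80 and 11.28 in DRD1A samples (lowest, median and highest), against 9.43, 8.24, 8.02 and 8.05 in DRD2 replicates 1 to 4 on probe P2900592. DRD2 replicate 1 was again the closest to the DRD1A samples. The difference was 2.26 ± 0.326, or 4.79-fold (adjusted p = 0.00628). The brighter probe P4180577 gave 1.36 ± 0.375 without overlap (adjusted p = 0.339). Of 13 other kept genes of sideroflexins and one-carbon metabolism, PSAT1 (-1.13), SRR (-0.70) and SHMT1 (-0.48) were lower at an unadjusted p under 0.05 and none was higher. SHMT1 was detected on 2 DRD1A arrays and 1 DRD2 array.

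KCNA6, a voltage-gated potassium channel of the Shaker family, was called by 2 bright probes. On P7000487 DRD1A samples had 13.71, 14.04 and 14.31 at the lowest, median and highest, against 12.76, 13.03, 13.18 and 12.36 in DRD2 replicates 1 to 4. Its difference was 1.31 ± 0.182, or 2.48-fold (adjusted p = 0.00561), and that of P3140612 was 1.26 ± 0.180 (adjusted p = 0.00628). The remaining KCNA6 probes, P3370019 (-0.34) and P1710220 (-0.37), were dim and overlapped between the lines. Among 37 kept potassium channel genes 2 were higher and 3 lower in DRD1A samples at an unadjusted p under 0.05, and the median difference was -0.01. KCNK2, a two-pore channel, was the lowest of them (-1.36 ± 0.305, adjusted p = 0.169), with 7.56 to 9.04 in DRD1A samples and 9.18 to 10.16 on the DRD2 arrays.

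The other genes called lower in DRD1A samples encode zinc finger proteins and were dim. ZFP689 had 7.03, 7.19 and 7.85 in DRD1A samples (lowest, median and highest), against 9.23, 8.08, 8.35 and 8.35 in DRD2 replicates 1 to 4 (-1.30 ± 0.207, adjusted p = 0.0194). ZFP654 had 7.07, 7.14 and 7.35 in DRD1A samples, against 7.93, 7.80, 7.65 and 8.87 in DRD2 replicates 1 to 4 (-1.01 ± 0.176, adjusted p = 0.0490). In both genes most DRD1A arrays were not above background, since 3 and 1 of 8 were detected, while all 4 DRD2 arrays were. A second ZFP654 probe, P7210255, lay just outside the threshold with the same direction (-1.32 ± 0.242, adjusted p = 0.0558). The call of ZFP654 was lost in 23 of 36 alternatives, among them the BeadChip as a term (adjusted p = 0.154), and that of ZFP689 in 5.

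**Figure D1:**
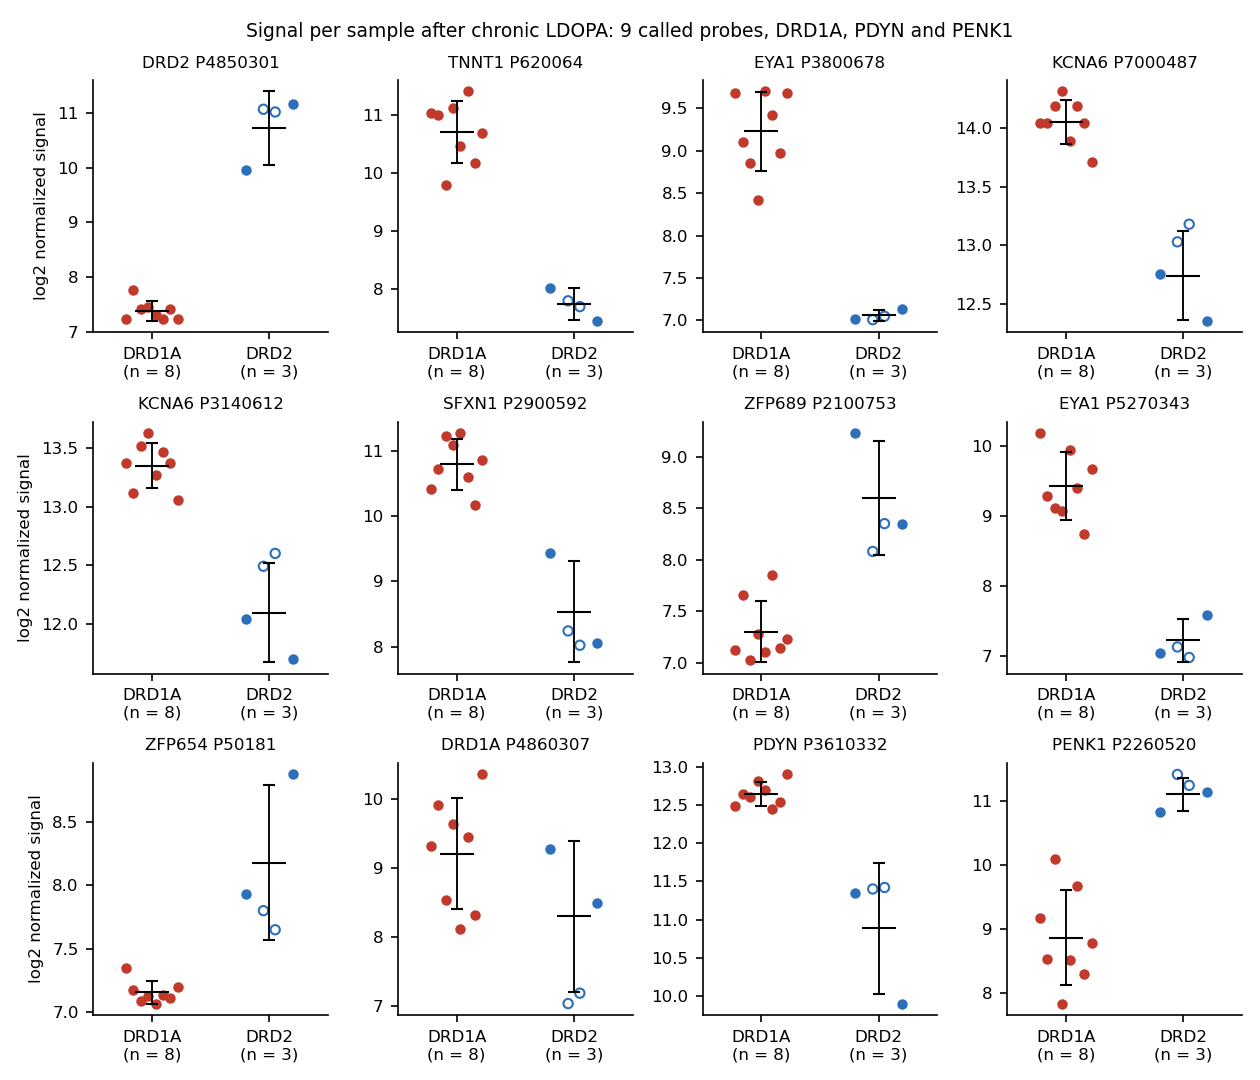
Log2 normalized signal (vertical axis, own scale in each panel) of the 9 called probes and of DRD1A, PDYN and PENK1 in 8 DRD1A (red, left) and 3 DRD2 (blue, right) samples after chronic LDOPA. Open circles are DRD2 replicates 2 and 3, which count as 1 sample, and bars are mean and SD; the groups do not overlap in any called probe, and they overlap for DRD1A.

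The BeadChip was unevenly spread over the lines, so each called probe was also read within the BeadChips that held both. On BeadChip 3 the difference was -3.63 for DRD2, 2.77 for TNNT1, 1.94 for EYA1 P3800678, 0.95 for KCNA6 P7000487 and 3.18 for SFXN1, and on BeadChip 4 it was -3.88, 3.29, 2.23, 1.62 and 2.49 in the same order. ZFP689 gave -1.22 and -0.94, and ZFP654 -0.56 and -1.72. All 9 called probes kept their direction on both BeadChips with every DRD1A array past the DRD2 array. This largely follows from the lack of overlap given above and is no separate check. With BeadChip as a term in the fit 7 probes were called, 6 of them among the 9, and EYA1 P5270343, ZFP689 and ZFP654 were not (adjusted p = 0.130 to 0.180). On BeadChips 3 and 4 alone 5 were called, and only DRD2 and SFXN1 of the 9 remained.

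The neuropeptides of both pathways lay just outside the threshold. PDYN, the precursor of dynorphin, had 12.45, 12.62 and 12.90 in DRD1A samples (lowest, median and highest), against 11.35, 11.40, 11.42 and 9.90 in DRD2 replicates 1 to 4 (1.75 ± 0.309, adjusted p = 0.0511). DRD2 replicate 4 had the lowest PDYN signal. PENK1, the precursor of enkephalin, had 7.84, 8.66 and 10.09 in DRD1A samples, against 10.83, 11.41, 11.24 and 11.14 in DRD2 replicates 1 to 4 (-2.23 ± 0.408, adjusted p = 0.0558). Neither gene overlapped between the lines. The study also reports PDYN enriched in the DRD1A line and PENK1 in the DRD2 line by qRT-PCR. PDYN passed in 14 of 36 alternatives and PENK1 in 11, among them median scaling (adjusted p = 0.00272 for PDYN and 0.0394 for PENK1) and the 23 arrays taken as separate samples (0.0170 and 0.00842). TAC1, the precursor of substance P, was higher at an unadjusted p of 0.00711 (1.34), as was CCK, cholecystokinin (0.97, unadjusted p = 0.000884). Both overlapped between the lines. Of 15 kept neuropeptide genes 4 were higher and 1 lower at an unadjusted p under 0.05, with a median difference of 0.01.

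Other markers of the pathways were counted as lists. The list members were chosen with earlier results of these data known, so these counts are not independent of the calls. Of 9 kept markers of direct pathway MSNs 6 were higher and none lower, with a median of 1.16. The higher ones were PDYN, TAC1, ISL1, SLC35D3 and the called genes SFXN1 and EYA1. ISL1, a transcription factor of direct pathway neurons, had 8.41 to 9.83 in DRD1A samples and 7.42 to 8.53 on the DRD2 arrays (1.27, adjusted p = 0.237), and SLC35D3, a transporter linked to D1 receptor trafficking, had 8.19 to 9.24 and 7.07 to 8.06 (1.16, adjusted p = 0.196). EBF1 (0.27), a transcription factor, and CHRM4, the muscarinic M4 receptor, did not pass and lay near background. Of 7 kept markers of indirect pathway MSNs 4 were lower and none higher, with a median of -0.90. The lower ones were PENK1, SP9, GPR6 and the called gene DRD2. SP9, a transcription factor of indirect pathway neurons, had 7.47 to 10.28 in DRD1A samples and 10.81 to 11.99 on the DRD2 arrays (-2.25, adjusted p = 0.166). GPR6, an orphan receptor of indirect pathway neurons, had 6.91, 7.07 and 7.73 in DRD1A samples, and 7.26, 9.31, 9.26 and 7.66 in DRD2 replicates 1 to 4, so that the high values were those of the near-identical arrays. ADORA2A, an adenosine receptor of indirect pathway MSNs, was detected on no DRD1A array and 1 DRD2 array, and its probe gives no comparison. Without DRD2 replicate 1 the counts stayed at 6 and 4.

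Markers shared by both kinds of MSN were lower in DRD1A samples where they passed. Of 12 kept genes 5 were lower and none higher in DRD1A samples, with a median of -0.37. FOXP1, a transcription factor, was the lowest (-1.31, adjusted p = 0.503), and PDE10A, a phosphodiesterase of MSNs, gave -0.78 (adjusted p = 0.703). MEIS2, a homeobox protein, had 10.61 to 11.37 in DRD1A samples and 11.48 to 11.61 on the DRD2 arrays without overlap (-0.55, adjusted p = 0.621). With median scaling 1 of the 12 was lower, and without DRD2 replicate 4 the count was 2.

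Markers of other cells were read beside these values. Each sample is mRNA pulled down from the striatum of 1 hemisphere. Fewer cells of a type, less RNA per cell and less untagged RNA carried along in the pulldown cannot be told apart in it. For cholinergic interneurons, CHAT, SLC18A3, SLC5A7, LHX8 and GBX2 were at or near background in both lines (differences from -0.14 to 0.09), and ISL1, which direct pathway MSNs also use, was the exception. Of 8 kept oligodendrocyte markers CNP was lower at an unadjusted p under 0.05, and the list had a median of -0.49. The summed normalized signal of these 8 genes ranged from 3055 to 7079 in DRD1A samples and from 3978 to 12053 in DRD2 samples, where replicates 2 and 3 were the highest. MAG, a myelin glycoprotein, had 7.16, 7.99 and 10.71 in DRD1A samples (lowest, median and highest), against 9.73, 10.61, 11.14 and 8.57 in DRD2 replicates 1 to 4, and MOG was detected on no array. Astrocyte markers summed to 2374 to 3667 in DRD1A samples and 2654 to 5987 in DRD2 samples, with none of 8 past an unadjusted p under 0.05. The range of cortical excitatory neuron markers was 3045 to 4058 in DRD1A samples and 1929 to 3368 in DRD2 samples, with NEUROD6 (1.04) and SLC17A7 (0.30) higher of 8. DRD2 replicate 4 had a NEUROD6 signal of 7.78, below every other chronic LDOPA array. GABAergic interneuron markers had 1653 to 3257 and 1495 to 2495 in DRD1A and DRD2 samples and none of 8 passed, microglia markers 845 to 2464 and 1057 to 1430 with P2RY12 lower of 6 (-0.71), and endothelial markers 544 to 604 and 557 to 573 with none of 4. XIST was detected on no DRD1A array and 1 DRD2 array, and of the sex-linked genes DDX3Y, on the Y chromosome, was lower in DRD1A samples (-0.76, unadjusted p = 0.0105). The part of these markers in the called genes was not tested.

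Immediate early genes are transcribed within minutes of neuronal activation, and the tissue was taken 40 min after LDOPA. Of 15 kept genes 7 were higher at an unadjusted p under 0.05 and none lower in DRD1A samples, 14 had a positive difference, and the median was 0.65. No member was called. EGR2, a zinc finger transcription factor, had the largest difference: 11.52, 11.85 and 12.42 in DRD1A samples (lowest, median and highest), against 11.02, 10.03, 10.15 and 9.87 in DRD2 replicates 1 to 4 (1.53 ± 0.410, adjusted p = 0.312). FOS had 8.41, 9.15 and 10.07 in DRD1A samples, against 8.31, 7.71, 7.75 and 7.63 in DRD2 replicates 1 to 4 (1.23 ± 0.403, adjusted p = 0.518). EGR1, a member of the same family as EGR2 and the brightest of the list, had 12.94 to 13.52 in DRD1A samples and 12.42 to 12.74 on the DRD2 arrays (0.65 ± 0.199, adjusted p = 0.438). These 3 genes and NR4A1, an orphan nuclear receptor (0.51), did not overlap between the lines, which was so for 4 of the 15 genes, against 1.1% of all genes with every DRD1A sample above. EGR4 (1.14), JUN (0.91) and EGR3 (0.59) passed the unadjusted threshold with overlap. FOSB (0.96), whose product persists after repeated stimulation, and ARC (0.85), a synaptic protein, did not pass it, and NPAS4 and JUNB were near background. The count was 8 without DRD2 replicate 1, 7 with BeadChip as a term, 5 on BeadChips 3 and 4 alone and 4 without DRD2 replicate 4.

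The MAPK cascade carries the signal of the D1 receptor to the nucleus. The study chose 7 MAPK genes on these samples, so their direction is not independent evidence. Of these genes 6 were higher and 1 lower in DRD1A samples at an unadjusted p under 0.05, and none was called. PAK1, a kinase that activates the cascade, had 8.58, 9.62 and 10.01 in DRD1A samples (lowest, median and highest), against 8.49, 7.97, 7.90 and 8.10 in DRD2 replicates 1 to 4 (1.35 ± 0.268, adjusted p = 0.0877). DUSP1, a phosphatase that shuts MAP kinases off, had 10.91, 11.68 and 12.33 in DRD1A samples, against 10.63, 9.57, 9.71 and 10.68 in DRD2 replicates 1 to 4 (1.39 ± 0.402, adjusted p = 0.393). For both genes the groups did not overlap, although the lowest DRD1A sample lay close to the highest DRD2 array. GADD45G, a stress sensor that activates a MAP kinase kinase kinase, overlapped (1.30 ± 0.337, adjusted p = 0.292), and STMN1, a microtubule regulator, did not (0.57 ± 0.168, adjusted p = 0.407). RASGRP2, an exchange factor for RAP, was the gene with the opposite sign (-0.74 ± 0.245, adjusted p = 0.519), and with BeadChip as a term or without DRD2 replicate 4 the count of lower genes was 0. Of 16 kept core kinases of the cascade none passed an unadjusted p under 0.05 in either direction, with a median of 0.03, and of 10 kept phosphatases and feedback genes DUSP1 alone passed.

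**Figure D2:**
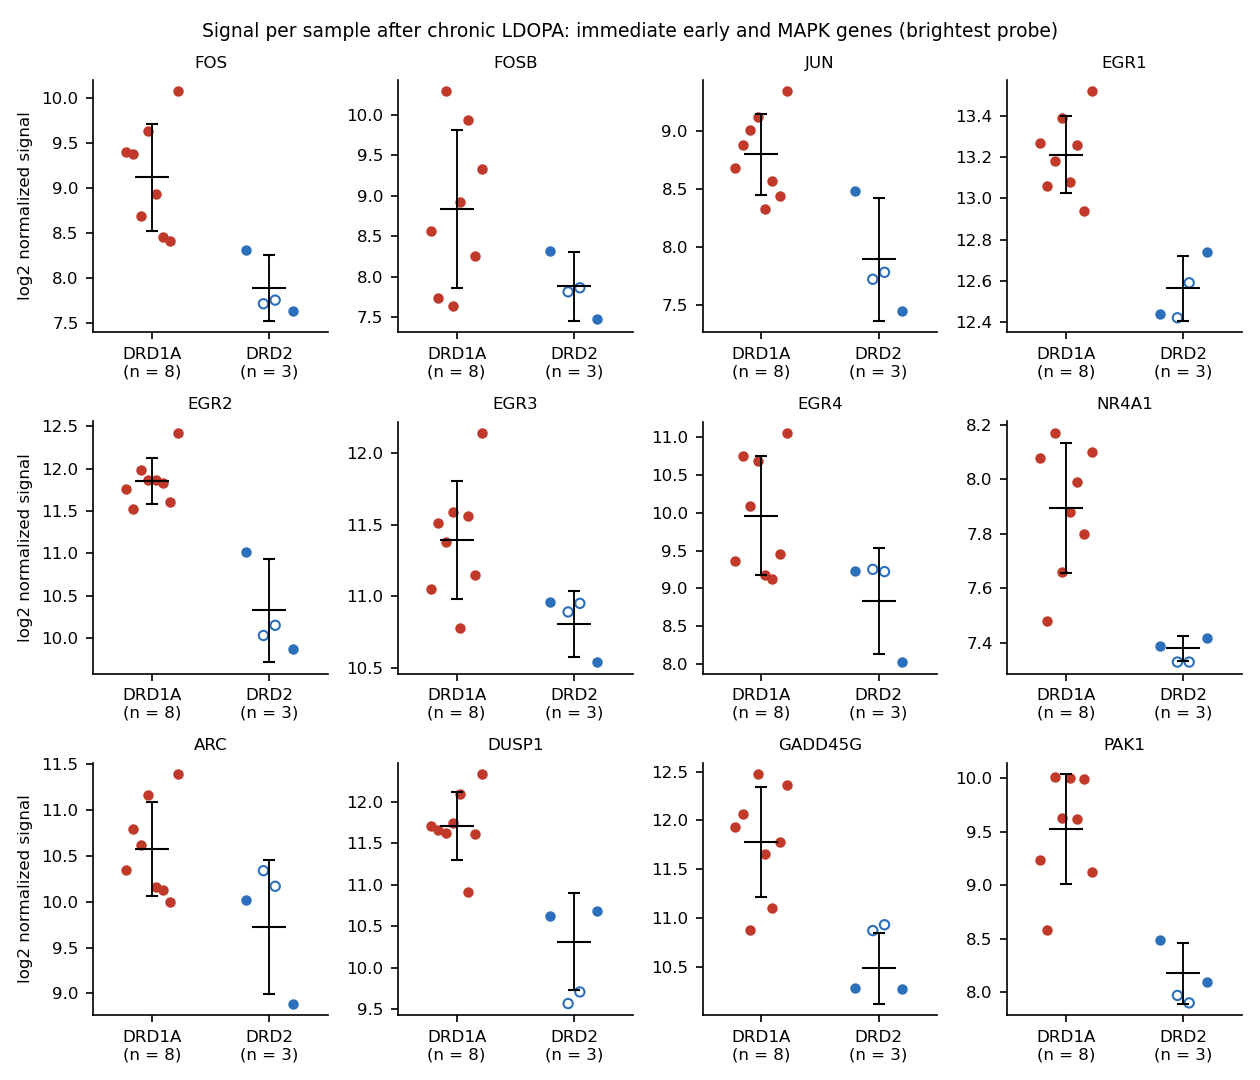
Log2 normalized signal (vertical axis, own scale in each panel) of 9 immediate early genes and of DUSP1, GADD45G and PAK1, by the brightest probe, in 8 DRD1A (red, left) and 3 DRD2 (blue, right) samples after chronic LDOPA. Open circles are DRD2 replicates 2 and 3, which count as 1 sample, and bars are mean and SD; the DRD1A mean is the higher one in all 12 panels.

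Sequences upstream of 4 genes of these lists are shown because most members that passed were higher in DRD1A samples and cAMP, which the D1 receptor raises, acts through the cAMP response element. RefSeq promoter windows of GRCm38.p6, 250 bases before to 50 after each start, were searched on both strands for TGACG, the half-site of that element, and for the full element TGACGTCA, which holds a half-site on each strand. Of 12 immediate early genes with a window 10 held the half-site (83.3%), against 23% of 27025 genes, and none held the full element. Of these holders EGR2, EGR4, FOS and NR4A1 had passed as higher, and FOSB, HOMER1, JUNB, NPAS4, NR4A2 and NR4A3 had not. EGR1, EGR3 and JUN passed but are not among the holders, and some of them may lack a window. Whether the half-site goes with the difference between the lines was not tested. Among 6 MAPK genes of the study with a window 4 held the half-site (66.7%), and DUSP1 and PAK1 held the full element, which 2.03% of all genes do. Of 5 called genes with a window TNNT1 and KCNA6 held the half-site. The 250 bases before the start, written 5′ to 3′ on the strand of the gene, follow for FOS, NR4A1, DUSP1 and PAK1 (the first of 2 windows for PAK1), with half-sites and full elements in capitals, where CGTCA is the half-site read on the other strand.
Fos, chr12:85473640-85473889, plus strand: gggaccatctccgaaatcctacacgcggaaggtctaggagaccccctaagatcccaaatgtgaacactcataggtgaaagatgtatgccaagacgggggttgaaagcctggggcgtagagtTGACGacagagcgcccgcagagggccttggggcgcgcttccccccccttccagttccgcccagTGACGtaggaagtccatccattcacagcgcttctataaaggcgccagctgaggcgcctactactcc
Nr4a1, chr15:101266596-101266845, plus strand: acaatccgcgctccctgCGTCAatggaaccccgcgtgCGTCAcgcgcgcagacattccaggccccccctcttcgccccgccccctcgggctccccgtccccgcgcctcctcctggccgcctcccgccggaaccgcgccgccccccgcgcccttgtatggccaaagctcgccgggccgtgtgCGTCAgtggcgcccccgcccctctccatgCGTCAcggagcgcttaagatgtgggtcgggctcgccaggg
Dusp1, chr17:26508473-26508722, minus strand: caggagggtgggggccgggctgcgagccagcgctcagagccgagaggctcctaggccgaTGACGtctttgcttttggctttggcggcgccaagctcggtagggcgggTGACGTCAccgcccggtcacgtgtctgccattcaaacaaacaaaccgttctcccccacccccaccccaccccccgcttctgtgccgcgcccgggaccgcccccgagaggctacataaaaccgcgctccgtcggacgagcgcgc
Pak1, chr7:97788291-97788540, plus strand: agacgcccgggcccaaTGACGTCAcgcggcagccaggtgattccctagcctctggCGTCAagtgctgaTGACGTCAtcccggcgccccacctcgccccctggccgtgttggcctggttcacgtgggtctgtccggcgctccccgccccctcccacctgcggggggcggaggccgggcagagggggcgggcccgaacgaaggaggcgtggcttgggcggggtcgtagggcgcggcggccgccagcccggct
FOS held 2 half-sites in this stretch and NR4A1 held 4, while DUSP1 held 1 full element and PAK1 held 2. DUSP1 and PAK1 each held 1 further half-site outside a full element. A match is a description of these letters only.

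Other genes that the study chose for this comparison were mixed. GUCY1A3, a subunit of the nitric oxide receptor guanylyl cyclase, had 9.09, 9.62 and 10.13 in DRD1A samples (lowest, median and highest), against 10.81, 10.56, 10.79 and 10.94 in DRD2 replicates 1 to 4 on probe P3440463 (-1.25 ± 0.222, adjusted p = 0.0511). Its brightest probe gave -0.76 with overlap (adjusted p = 0.472). ATP6V0A2, a subunit of the vacuolar proton pump, was dim, with 7.11 to 7.32 in DRD1A samples and 7.49 to 7.86 on the DRD2 arrays (-0.43 ± 0.076, adjusted p = 0.0511). HTR2A, the serotonin 2A receptor, was lower (-0.83, adjusted p = 0.293), as was KCNK2, given above, and COX5A (0.36, adjusted p = 0.237) and TOMM70A (0.43, adjusted p = 0.689), both mitochondrial, were higher at an unadjusted p under 0.05. NDUFA3 (0.41), SENP5 (0.63) and CAMK4 (-0.15) did not pass it by their brightest probes, whereas dimmer probes of all 3 did. NDUFA3 P6330477 gave 0.49 (adjusted p = 0.307), CAMK4 P3170435 gave -1.42 (adjusted p = 0.277) and CAMK4 P5810601 gave -0.72 (adjusted p = 0.812). SENP5 P2320735 gave -0.53 (adjusted p = 0.682), so the SENP5 probes disagree in sign. The study chose these 9 genes on the same samples too, and the count by the brightest probe was 2 higher and 4 lower, with 1 higher without DRD2 replicate 4. By qRT-PCR on the same amplified cDNA, the study reports CAMK4, KCNK and SENP5 higher in DRD2 than in DRD1A samples after chronic LDOPA. It reports TOM70A lower there. The brightest SENP5 probe (0.63) has the opposite sign to that report.

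Among the annotated genes ranked next after the called ones, with predicted, clone-named and accession-named genes passed over, were several that signal at the synapse or membrane. LYPD1, which binds nicotinic receptors, had 10.81, 11.53 and 11.88 in DRD1A samples (lowest, median and highest), against 9.98, 9.56, 9.55 and 8.74 in DRD2 replicates 1 to 4 (2.00 ± 0.381, adjusted p = 0.0712). NENF, a secreted neurotrophic factor, gave 1.56 ± 0.326 (adjusted p = 0.118), PKIG, an inhibitor of protein kinase A, 0.95 ± 0.194 (adjusted p = 0.106), and NKIRAS1, an inhibitor of NF-kappaB signalling, 0.53 ± 0.0950 (adjusted p = 0.0511). ARHGDIG (1.01), SNCB (0.84), TMSB10 (0.71), POLR1D (0.66), AP2S1 (0.64) and BEX2 (0.49) completed the 12 higher annotated genes with PDYN and PAK1. On the lower side, MADD, a regulator of RAB3 and of MAP kinase signalling, had 7.08 to 7.68 in DRD1A samples and 7.94 to 8.81 on the DRD2 arrays (-0.96 ± 0.179, adjusted p = 0.0616). SLC2A13, a myo-inositol transporter, gave -0.96 ± 0.187 (adjusted p = 0.0817), GNB5, the G protein beta subunit that partners RGS proteins, -0.88 ± 0.181 (adjusted p = 0.105), and ACTL6B, a neuronal chromatin remodelling subunit, -1.32 ± 0.280 (adjusted p = 0.129). THRAP3 (-0.43), MLL3 (-0.59), ARMC1 (-0.81) and TTC12 (-0.56) were dim. THRAP3 and ARMC1 were above background on no DRD1A array, so the means of these probes were at least 1.10-fold and 1.56-fold lower in DRD1A samples by the bound used for EYA1.

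**Figure D3:**
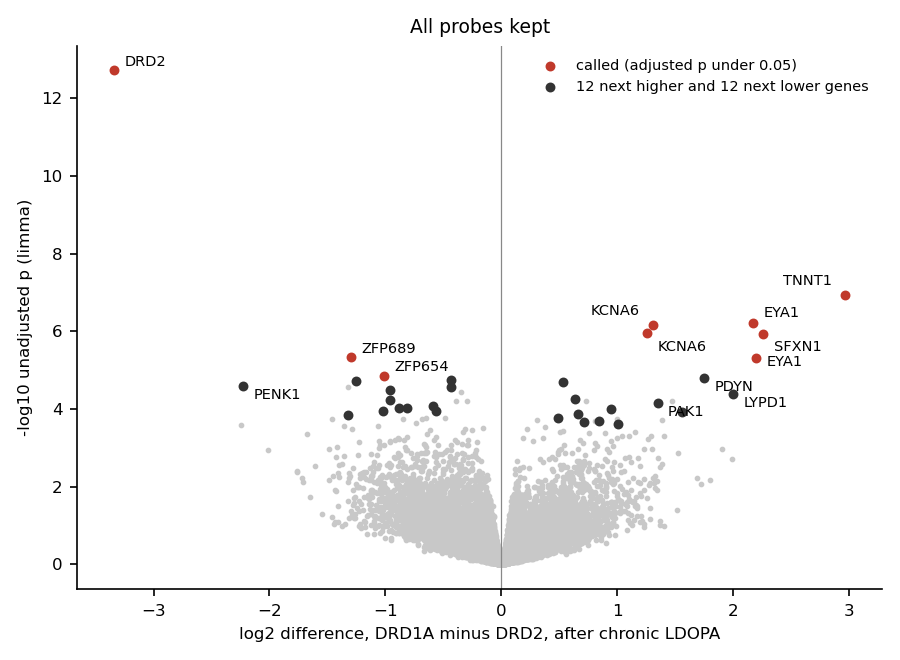
Log2 difference, DRD1A minus DRD2, after chronic LDOPA (horizontal axis) against -log10 of the unadjusted p from limma (vertical axis) for the 32255 probes kept. The 9 called probes are red and labelled, and the 24 genes ranked next are dark; DRD2 at -3.34 and TNNT1 at 2.97 lie farthest out.

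In the signalling lists DRD2 was the only called gene by the brightest probe, and the counts at an unadjusted p under 0.05 follow. Of all genes 2.73% were higher and 3.47% lower by that rule. Of 28 kept genes of dopamine and cAMP signalling 3 were higher and 2 lower, with a median of -0.06. Both inhibitors of protein kinase A that passed were higher, PKIG and PKIB (1.11, adjusted p = 0.227), with GNAI2, an inhibitory G protein (0.59), while DRD2 and GNB1, a G protein beta subunit (-0.62), were lower. Of 20 kept striatal G protein-coupled receptors 5 were lower and 1 higher, with P2RY1, a purine receptor (-1.23), CNR1, the cannabinoid receptor (-0.93), GPR6 and HTR2A among the lower ones and ADORA1 (0.71) the higher one. Calcium and calmodulin signalling had 5 lower and 1 higher of 26, among the lower ones HPCA, a neuronal calcium sensor (-0.68, adjusted p = 0.442), without overlap. With median scaling 1 gene of that list was lower and 3 higher. RAS and actin regulators had 5 lower and 1 higher of 29, with RAP1GAP (-0.96) lowest and PAK1 the higher one, and 2 were lower with BeadChip as a term and without DRD2 replicate 1. Of 11 kept genes of cGMP signalling 3 guanylyl cyclase subunits, GUCY1A2 (-1.21), GUCY1A3 and GUCY1B3 (-0.60), were lower and none was higher, and all 3 overlapped between the lines. Of these 1 was lower with BeadChip as a term and without DRD2 replicate 4, and 0 with median scaling. Without DRD2 replicate 4, 1 gene of calcium and calmodulin signalling was lower and no G protein-coupled receptor was higher.

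AMPA receptor subunits GRIA1 (-0.81, adjusted p = 0.715) and GRIA2 (-0.72, adjusted p = 0.407) were the genes lower of 27 for glutamate receptors and scaffolds, and GRIA2 had 9.37 to 10.41 in DRD1A samples and 10.52 to 11.02 on the DRD2 arrays. GABRB1 (-0.82) and GABRB2 (-0.59), subunits of the GABA-A receptor, were among the genes lower of 19 for GABA synthesis, transport and receptors. Sodium and calcium channels had SCN3B (-0.79), SCN4B (-0.63) and CACNB2 (-0.83) lower and CACNA1A (0.13) higher of 22. No member of these 3 lists passed as higher except CACNA1A, which was above background on no DRD2 array. Of 15 kept phosphodiesterases PDE4D (-1.28) and PDE10A were lower, of 16 RGS proteins RGS6 (0.21, with no DRD2 array above background) was higher, of 34 axon guidance and adhesion genes UNC5D (-0.59) was lower, and of 23 histones H1F0, a replacement linker histone, was higher (0.96, adjusted p = 0.407). Of 25 striatal transcription factors 5 were higher (ISL1, EYA1, EGR1, DLX5 and NR4A1) and 4 lower (SP9, FOXP1, ZFHX3 and MEIS2). Without DRD2 replicate 1, 3 transcription factors were higher, 1 gene each of the GABA list and of the sodium and calcium channels was lower, and RGS6 and UNC5D did not pass.

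Values after acute LDOPA come from other mice and show which differences between the lines were also there without chronic treatment. Of the 9 called probes 8 had the same sign after acute LDOPA, and 5 were called there too, where 0.158% of all probes were: DRD2 (-3.83 ± 0.175, adjusted p = 1.16e-10), SFXN1 (2.71 ± 0.302, adjusted p = 0.000256), EYA1 P3800678 (2.37 ± 0.277, adjusted p = 0.000414) and P5270343 (2.55 ± 0.326, adjusted p = 0.000973), and TNNT1 (1.73 ± 0.339, adjusted p = 0.0422). KCNA6 P7000487 averaged 14.05 ± 0.19 in DRD1A and 12.74 ± 0.37 in DRD2 samples after chronic LDOPA, and 13.47 ± 0.28 in DRD1A and 13.06 ± 0.36 in DRD2 samples after acute LDOPA (SD), a difference of 0.41 ± 0.169 (adjusted p = 0.467). ZFP689, by contrast, averaged 7.30 ± 0.29 in DRD1A and 8.60 ± 0.55 in DRD2 samples after chronic LDOPA, and 7.23 ± 0.29 and 7.17 ± 0.16 in DRD1A and DRD2 samples after acute LDOPA, where both lines lay near background (0.06, adjusted p = 0.955). PDYN was called after acute LDOPA (2.79 ± 0.286, adjusted p = 0.000102), as was PENK1 (-3.01 ± 0.377, adjusted p = 0.000973).

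The test of whether the difference between the lines itself differed between chronic and acute LDOPA called no probe, with 1796 of 32255 at an unadjusted p under 0.05 and a smallest adjusted p of 0.427 from limma. The interval of the change was 0.38 to 1.42 for KCNA6 P7000487 and 0.20 to 2.28 for TNNT1, -1.95 to -0.77 for ZFP689, -1.92 to -0.16 for PDYN and -1.05 to 0.65 for EYA1 P3800678 (95% intervals, not adjusted). LYPD1, with 11.43 ± 0.35 in DRD1A and 9.43 ± 0.63 in DRD2 samples after chronic LDOPA and 9.89 ± 0.61 in DRD1A and 10.27 ± 0.86 in DRD2 samples after acute LDOPA, gave 1.30 to 3.47. PAK1 averaged 9.52 ± 0.51 and 8.18 ± 0.28 in DRD1A and DRD2 samples after chronic LDOPA, and 9.17 ± 0.34 and 8.92 ± 0.32 after acute LDOPA, with an interval of 0.34 to 1.87 for the change. These genes were taken for their values after chronic LDOPA, which are part of the change. BeadChip 1 held 4 DRD1A acute and 2 DRD2 chronic arrays and none of the other groups. Both of these groups enter the change with the same sign, so the BeadChip can weigh on it and on the acute difference. Its part in these intervals was not tested. With BeadChip as a term the test of the change called 0 probes. The immediate early genes had 10 of 15 higher after acute LDOPA at an unadjusted p under 0.05, with a median of 0.82. None of the 15 was lower. Of all genes 3.96% were higher and 5.53% lower there by the same rule.

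**Figure D4:**
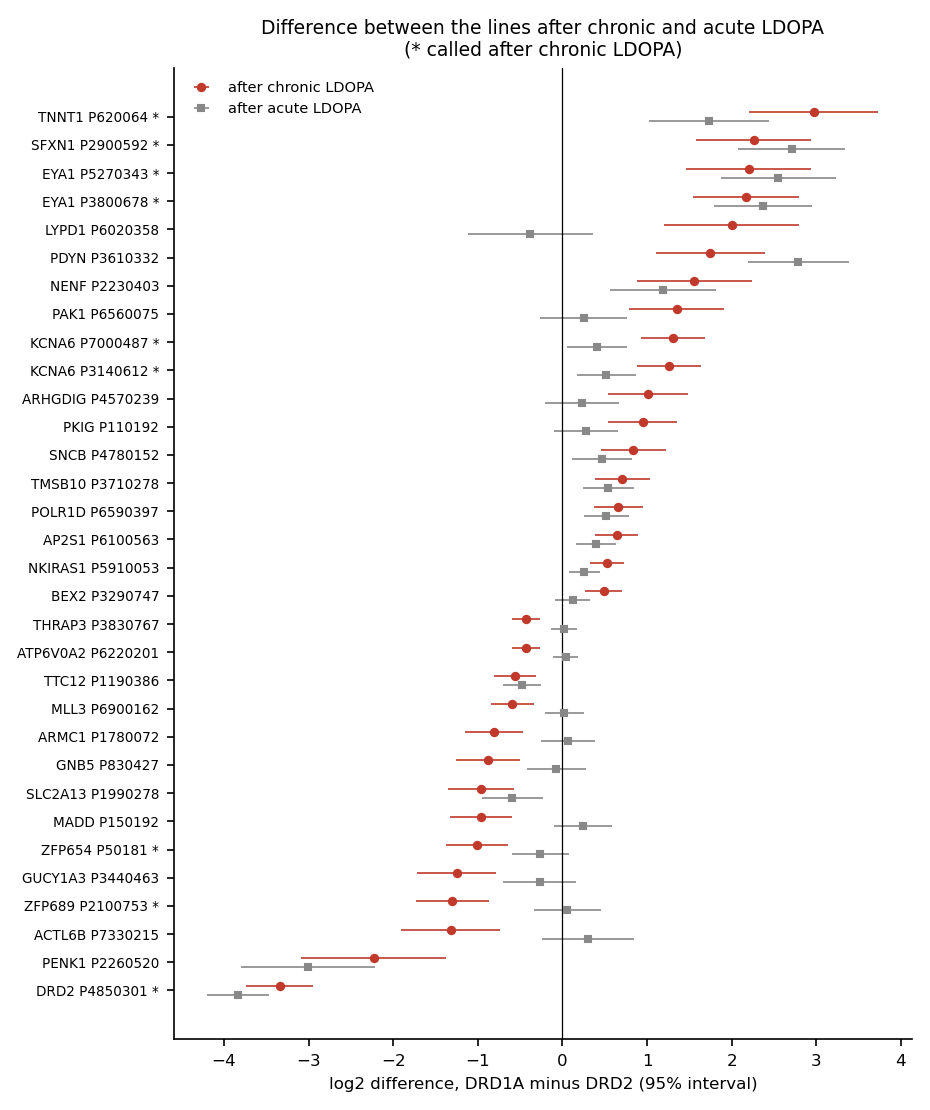
Log2 difference, DRD1A minus DRD2, with its 95% interval (horizontal axis) after chronic (red circles) and acute (grey squares) LDOPA for the 9 called probes, marked with a star, and the genes ranked next that are reported here. DRD2, SFXN1, EYA1 and PENK1 differ in the same direction under both treatments, and ZFP689 and LYPD1 lie near 0 or on the other side after acute LDOPA.

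SFXN1 is the next gene to Drd1 on mouse chromosome 13, so the genes around both receptors were read in the RefSeq gene order. Both lines carry a bacterial artificial chromosome built around a receptor gene, and the part of these inserts in the values was not tested. Of the 6 nearest measured genes on either side of Drd1, SFXN1 and GADD45G were higher in DRD1A samples at an unadjusted p under 0.05, GADD45G lying 37 genes away. The remaining 10 differed by -0.33 to 0.47. Around Drd2, on chromosome 9, the 2 nearest measured genes on one side were both lower in DRD1A samples at an unadjusted p under 0.05. ANKK1, a kinase gene, had 6.86 to 7.02 in DRD1A samples, where no array was above background, against 7.76, 7.19, 7.28 and 7.32 in DRD2 replicates 1 to 4. By the bound used for EYA1 the mean of its probe was at least 1.15-fold lower in DRD1A samples (measured difference -0.49 ± 0.170, adjusted p = 0.566). TTC12, a gene of cilia, had 7.11 to 7.4 in DRD1A samples, with a median of 7.22, against 7.31, 7.85, 8.10 and 8.11 in DRD2 replicates 1 to 4 (-0.56 ± 0.116, adjusted p = 0.115), and gave -0.48 after acute LDOPA (adjusted p = 0.0797). NCAM1, the neural cell adhesion molecule beyond it, gave -0.58 with overlap (adjusted p = 0.942). On the other side of Drd2 the 6 genes differed by 0.11 or less and were near background.

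**Figure D5:**
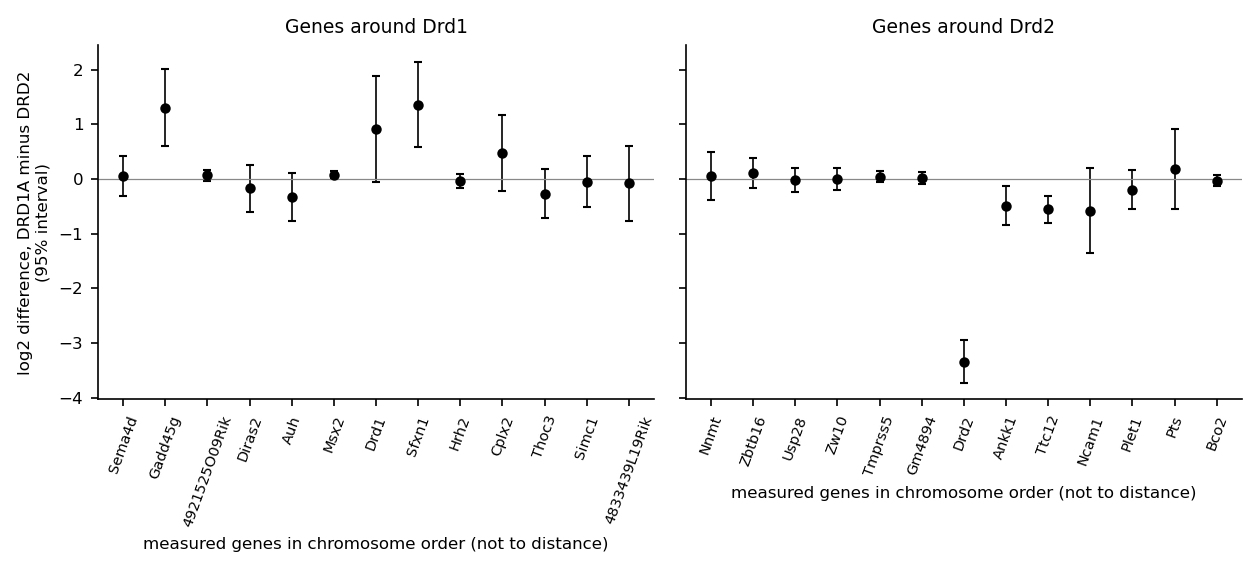
Log2 difference, DRD1A minus DRD2, after chronic LDOPA with its 95% interval (vertical axis) for Drd1 (left) and Drd2 (right) and the 6 nearest measured genes on either side, in chromosome order and not to distance. Sfxn1 next to Drd1 lies above 0, and Ankk1 and Ttc12 next to Drd2 lie below it.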

How the data were processed

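Ribosome-bound mRNA from the striatum was amplified and hybridised to Illumina Mouse WG-6 v2 BeadChips. The authors deposited GenomeStudio signal intensity and a detection p-value per probe for each array, without normalization. They also deposited a table of log2 values, quantile-normalized and median-centred, with every column median at 7.12. It was used as an alternative. Another 4 columns, of 1 array that matches no sample here, were not used.

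The intensities of 23 arrays were quantile-normalized without background correction and put on the log2 scale. Of 45281 probes, 32255 (71.2%) above the 20th percentile filter were kept. DRD2 chronic replicates 2 and 3 were averaged into 1 sample, which left 22. The design had named replicates 2 and 4, and the change was made after the counts under both had been seen. Group means of the 4 groups were estimated together (18 residual degrees of freedom) with limma 3.58.1 (R 4.3.3). Contrasts were DRD1A minus DRD2 after chronic and after acute LDOPA, and the difference between them, two-sided, with Benjamini-Hochberg adjustment over all probes kept. Probes with an adjusted p under 0.05 count as called. The fit was tested on simulated data first. Signals of different probes are not comparable as levels, and genes are represented in lists by their brightest probe.

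Named were the called probes and the other probes of their genes, the 12 annotated genes ranked next in each direction (predicted, clone-named and accession-named genes left out), the markers of the lines and the neuropeptides, the genes the study chose, the list members with the largest differences, and the 6 nearest measured genes on either side of Drd1 and Drd2. Some further list members that passed an unadjusted p under 0.05 were named after their values had been seen. The members and lists were chosen with earlier results of these data known. A few genes that these rules name are not reported here. Gene symbols are those of the array's annotation.

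Alternatives were median scaling, normexp background correction, the authors' log2 values, other filters on dim probes, 23 separate arrays, chronic samples only, BeadChip as a term, BeadChips 3 and 4 only, array weights, the methods' test (analysis of variance over the groups with Tukey's HSD), and leaving out each array. Leaving out both near-identical arrays and averaging replicates 2 and 4 were added after seeing the data.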

Additional observations from a re-analysis of the deposited data

Results flagged for a closer look

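Among 14 checks of the 8 DRD1A samples, 2 samples lay apart from the rest of their group. The DRD2 signal of DRD1A replicate 2 was 7.76, the highest of the DRD1A samples, of which the others lay at 7.45 or less. The ZFP654 signal of DRD1A replicate 1 was 7.35 on probe P50181, again the highest of its group. Both values remained below every DRD2 sample. Such a gap is met by chance in about 1 in 20 groups.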

How the results depend on the processing

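No called probe, nor DRD1A, PDYN or PENK1, changed direction in 36 alternatives. Many of these could not change it. Leaving out 1 of the 11 acute arrays cannot move the difference between the chronic groups, only its p-value. The same holds for chronic samples only, the other filters on dim probes and the methods' test. DRD2 was called in all 36, TNNT1, SFXN1, EYA1 P3800678 and KCNA6 P7000487 in 35, KCNA6 P3140612 in 34, ZFP689 and EYA1 P5270343 in 31 and ZFP654 in 13. The number of called probes was 9. It was 31 with median scaling, 14 with normexp, 16 with probes detected on every array of a chronic LDOPA group, 49 with 23 separate arrays, 5 on BeadChips 3 and 4 only, 27 with array weights and 27 by the methods' test. With the alternatives added after seeing the data it was 31 without both near-identical arrays and 56 with replicates 2 and 4 averaged instead. Leaving out 1 array gave 8 to 44, with 44 (10 higher, 34 lower) without DRD2 replicate 4, 16 without DRD2 replicate 1 or 3 and 17 without DRD1A acute replicate 3. With chronic samples only 6 were called, 4 of them among the 9. The cause was not tested. The test between chronic and acute LDOPA called 0 probes, and 1 on BeadChips 3 and 4 only, 2 without both near-identical arrays, 3 with replicates 2 and 4 averaged instead, and 0 to 7 without 1 array, with 7 again without DRD2 chronic replicate 4. Counts within the lists stayed within 1.5 times in 2191 of 2380 values and moved further in 189. Many of these values had little room to move, being counts of 0 or fits without 1 acute array. On leaving out 1 array, 33 of the 68 counts moved by over 1.5 times at least once.

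The lines are different mice, so no samples were paired. The labels give no replicate numbers, and those used here follow the order of the series. The DRD2 group rests on 3 samples, and the fit assumes that they vary like the other groups. Dim probes such as those of ZFP689 and ZFP654 carry little signal over background, which compresses their differences.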
